A study of Mus musculus with 768 samples.

Results

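The 8 genes described here are transcription factors and cofactors known to drive myelination by Schwann cells: Sox10, Egr2, Pou3f1, Pou3f2, Nab1, Nab2, Zeb2 and Yy1. They were chosen by name from the 25700 genes of the count table, each by its Ensembl identifier, and all 8 had a row. Single Schwann cells, the glia of peripheral nerve, were taken at postnatal day 5 from the sciatic nerves of C57bl/6J mice and read with Smart-Seq2, a protocol that copies full-length RNA. All animals had the genotype P0Cre-/+ with 1 copy each of ReYFP, a yellow reporter that Cre switches on in the Schwann cell lineage, and of βAct-DsRed, a red reporter made in every cell. YFP-positive cells went singly into the wells of 2 plates, 384 wells to a plate, and each plate was a pool of a male and a female. No animal was treated and no gene was deleted, so the comparisons are between cell states within 1 age.

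Wells with at least 1500 detected genes and outside the plate corners were kept, 325 in plate 1 and 330 in plate 2. A cell was called cycling when at least 3 of 10 mitosis genes had 5 or more reads. Among the others, wells with under 10 CPM, reads scaled to a common total per well or sum, of the myelin gene Ncmap were called immature. The rest were split at 30000 CPM of the myelin gene Pmp22 into intermediate below and myelinating above. None of the 8 factors was used in this sorting. It gave 57 cycling, 228 immature, 149 intermediate and 221 myelinating wells, with median depths of 583889, 450308, 517142 and 765668 reads per well. Reads were summed per plate and state, so each state has n = 2 plates and each level below is a pair of values. A list of Schwann cell markers was met, with 5 or more reads of each of 3 genes, in 592 of 655 wells. A list of 4 immature Schwann cell markers was met in 37 of 228 immature and 12 of 57 cycling wells and in 0 intermediate or myelinating wells. A list of 6 myelin markers was met in 135 of 228 immature, 25 of 57 cycling, 147 of 149 intermediate and all 221 myelinating wells, so the state names stand for the sorting rule and most immature wells held reads of myelin genes. The summed level of that list was 5635 and 5711 CPM in immature, 24434 and 24691 CPM in intermediate and 64051 and 64550 CPM in myelinating cells, lower value first. Lists for fibroblast-like, endothelial, immune, pericyte, neuronal and muscle cells were met in 0 of 655 wells, and a perineurial list in 4 intermediate wells. By counting error alone, the share of wells meeting an unmet list could be up to 0.458%. This limit is for whole lists under a strict rule and not for single genes. Of the pericyte list, Pdgfrb had a read in 152 wells, while Rgs5, Kcnj8 and Myh11 had no read. Of the endothelial list, Kdr had a read in 24 and Cldn5 in 4 wells, while Pecam1 and Cdh5 had no read. Cells with less of a transcript and fewer cells with it cannot be told apart in a sum, and shares of wells are therefore given beside the levels.

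Myelination in peripheral nerve is driven by a relay of transcription factors. Sox10, an HMG-box factor, is needed at every stage of the lineage. The POU factors Pou3f1 (Oct6) and Pou3f2 (Brn2) act with Sox10 at the pro-myelinating stage to switch on Egr2 (Krox20), a zinc finger factor that turns on myelin and lipid genes and holds earlier genes down. Nab1 and Nab2 bind Egr proteins and modify what they do. Zeb2 (Sip1) represses inhibitors of myelination, and Yy1 acts upstream of Egr2.

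The 8 genes lie on 6 chromosomes (coordinates of GENCODE vM21, GRCm38). Sox10 is at 15:79154908-79165240 on the minus strand, Egr2 at 10:67535475-67542188 on the plus strand and Nab2 at 10:127660918-127668568 on the minus strand. Pou3f1, at 4:124656807-124660655 on the plus strand, and Pou3f2, at 4:22482780-22488366 on the minus strand, each have a single exon. Nab1 is at 1:52457294-52500679 on the minus strand, Zeb2 at 2:44983632-45117395 on the minus strand and Yy1 at 12:108792973-108820148 on the plus strand. No stretch of 50 bases was shared between the transcripts of any members, the paralogs Pou3f1 and Pou3f2 and Nab1 and Nab2 included. Genes on the other strand overlap 3 of them. Of the exon bases of Nab2, 42.2% are shared with Gm16229, Nemp1 or Stat6, of Pou3f1 8.57% with Gm2164, and of Zeb2 3.30% with Zeb2os or small RNAs. The sources used here do not state whether reads were counted by strand, so reads of these stretches cannot be assigned to one gene with certainty. Gm16229, Gm2164 and Zeb2os were not analysed here.

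RefSeq promoter windows (GRCm38.p6, 250 bases before to 50 bases after each start) were available for 6 of the 8 factors, 13 windows in all. Sox10 and Pou3f1 had no entry. The windows were searched on both strands for motifs that the factors of this group are known to bind, and the matches found are shown because they place a motif of one member's family next to the start of another member or, for the EGR core, of Egr2 itself. The capitals mark the motif and each line reads 5′ to 3′ on the strand of the gene.
Nab1 first EGR site, 1:52500538-52500567: actcggccgcGCGTGGGCGggagccggagc
Nab1 second EGR site, 1:52500570-52500599: gccccgcggcCGCCCACGCcgggatctgcg
Egr2 POU octamer, 10:67537731-67537760: gccaagcccgtATGCAAATtggccatgtga
Egr2 EGR core, 10:67535457-67535486: tgcaatcctccCGCCCACgtgcaccgacgg
Zeb2 SOX core, 2:45110322-45110351: aacagtaacaacACAAAGcgcctcggggcc

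The Nab1 window held the EGR site GCGTGGGCG in both orientations, 109 and 141 bases before the RefSeq start and within a UTR exon of 1 of its 5 GENCODE transcripts. This motif occurred in 0.612% of 32851 windows. The Nab1 window was 81.7% G and C, beside a median of 52.7% over all windows, and the share was not matched for composition. Its core GTGGGCG, which lies inside the longer site, occurred in 7.97% of windows, and among the factors it was found in Nab1 and, on the opposite strand 31 bases before a start and outside the GENCODE gene, in Egr2. The octamer ATGCAAAT, a POU motif, occurred in 1.74% of windows and stood 127 bases before a start of Egr2, in an intron of 2 transcripts that begin further upstream. The SOX core ACAAAG, in 18.7% of windows, was found in a window of Zeb2 inside an intron of 23 transcripts, 62 bases before a start. The SOX core ACAATG (12.6% of windows), the E-box CACCTG (20.2%), the YY1 motif AAGATGG (6.34%) with its longer form (0.633%) and TATAAA (13.6%) were in none of the 13 windows. These matches describe letters in a window and not binding.

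Across states the group did not move as a block. Between immature and myelinating cells Egr2 and Nab2 rose, Zeb2 fell, and the other 5 did not pass the test. Levels per kilobase of exon, averaged over the 8 sums, put Sox10 first at 81.2 CPM per kb, followed by Egr2 at 43.8, Pou3f1 at 29.9, Nab2 at 23.5 and Zeb2 at 11.1 CPM per kb. Yy1 at 5.80 and Pou3f2 at 5.71 CPM per kb were next and did not differ beyond the spread of their sums, and Nab1 was lowest at 2.27 CPM per kb. Ranges over the 8 sums overlapped for each neighbouring pair of this order, such as 58.5 to 101.8 CPM per kb for Sox10 and 21.1 to 73.7 CPM per kb for Egr2. Exon length was the union over all GENCODE transcripts, 19942 bases for Zeb2 and 2941 to 6418 bases for the others. The place of Zeb2 rests on that length, since before division it stood at 222 CPM, beside 248 CPM for Sox10 and 149 CPM for Egr2.

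**Figure D1:**
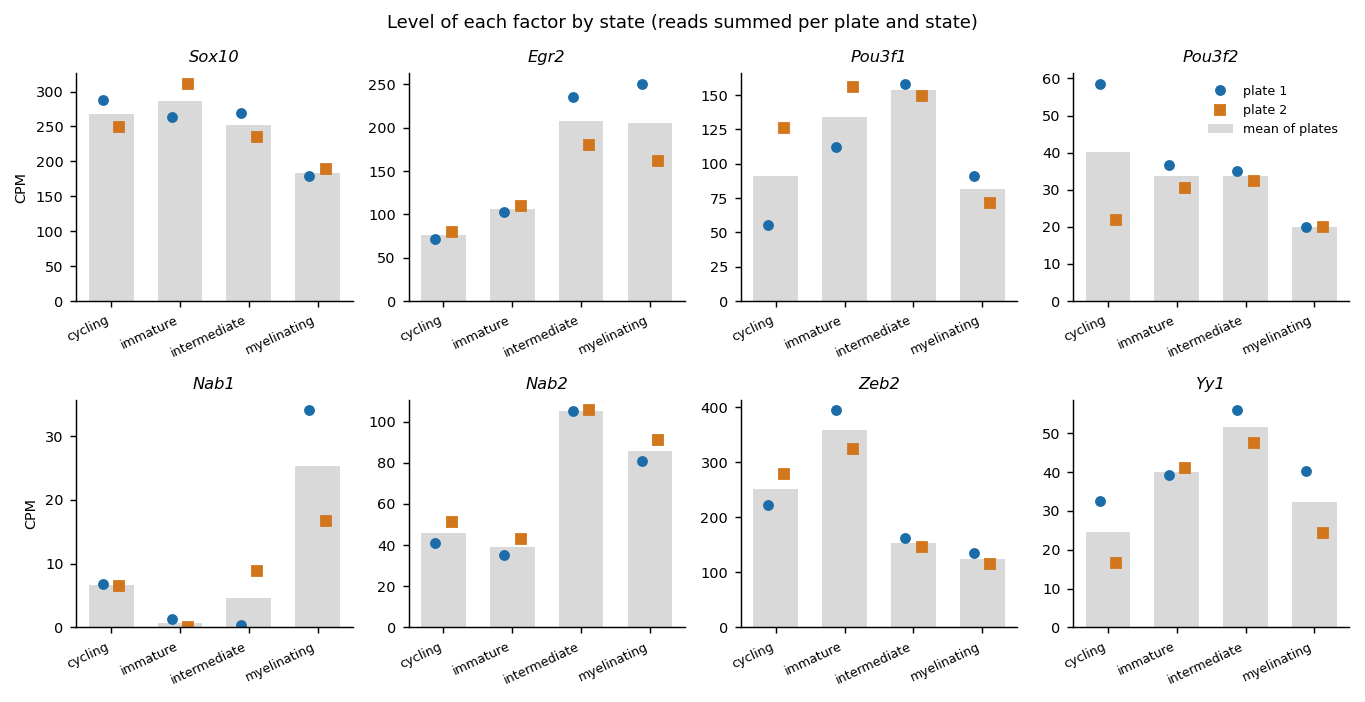
Level of each factor in CPM (y axis from 0, own scale per gene) in the 4 states (x axis). Points are the 2 plates and grey bars their mean. Egr2 and Nab2 are higher in both plates of intermediate and myelinating than of immature cells, Zeb2 is lower, and Nab1 is near 0 in immature cells.

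Sox10, the factor required throughout the lineage, was present in nearly every cell. Its level was 263 and 311 CPM in immature cells (plate 1 and plate 2), 270 and 235 CPM in intermediate cells, 178 and 189 CPM in myelinating cells, and 288 and 249 CPM in cycling cells. The myelinating values lay below those of all other states, while the other 3 states overlapped. Sox10 did not pass the test in any comparison, with a log2 change of -0.26 ± 0.19 (SE, adjusted p = 0.588) for myelinating minus immature. At least 5 reads were found in 93.9% of immature, 89.6% of intermediate and 96.3% of myelinating wells (means of 2 plates).

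Egr2, the activator of myelin genes, rose from immature to myelinating cells. It stood at 103 and 110 CPM in immature cells, 236 and 180 CPM in intermediate cells, and 250 and 161 CPM in myelinating cells. Intermediate and myelinating values were above both immature values and overlapped each other. In cycling cells it was at 71.6 and 80.1 CPM, the lowest of the states. The change from immature to myelinating cells was 1.34 ± 0.27 on the log2 scale (SE, adjusted p = 0.0246), a fold of 2.53, with 1.67 within plate 1 and 0.93 within plate 2. That from immature to intermediate cells was 1.11 ± 0.27 and missed the threshold (adjusted p = 0.0978).

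The share of wells with Egr2 went up more than its level within such wells in CPM not scaled for composition. At least 5 reads were found in 44.3% and 47.5% of immature wells, 77.2% and 81.4% of intermediate wells and 86.1% and 91.2% of myelinating wells. Among wells that had these reads, the median was 154 and 150 CPM in immature, 201 and 167 CPM in intermediate and 210 and 138 CPM in myelinating cells. Both intermediate medians were above the immature ones, while the myelinating medians overlapped those of both other states. Factors of the scaling for composition (TMM) were 1.12 and 1.11 for immature and 0.851 and 0.857 for myelinating sums. Scaling would therefore raise the myelinating medians relative to the immature ones, and the overlap holds for unscaled CPM only. Myelinating wells were also deeper, so that 5 reads are reached at a lower CPM. The shares did not overlap between any of the non-cycling states. For equal depth, 633 wells were thinned to 100000 reads, and 22 wells with fewer reads were left out. Egr2 then had a read in 48.5% of immature, 83.0% of intermediate and 89.9% of myelinating wells. The order of the shares thus held at equal depth in these wells. In intermediate cells of plate 1, a single well at 2726 CPM carried 12.4% of the Egr2 reads.

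**Figure D2:**
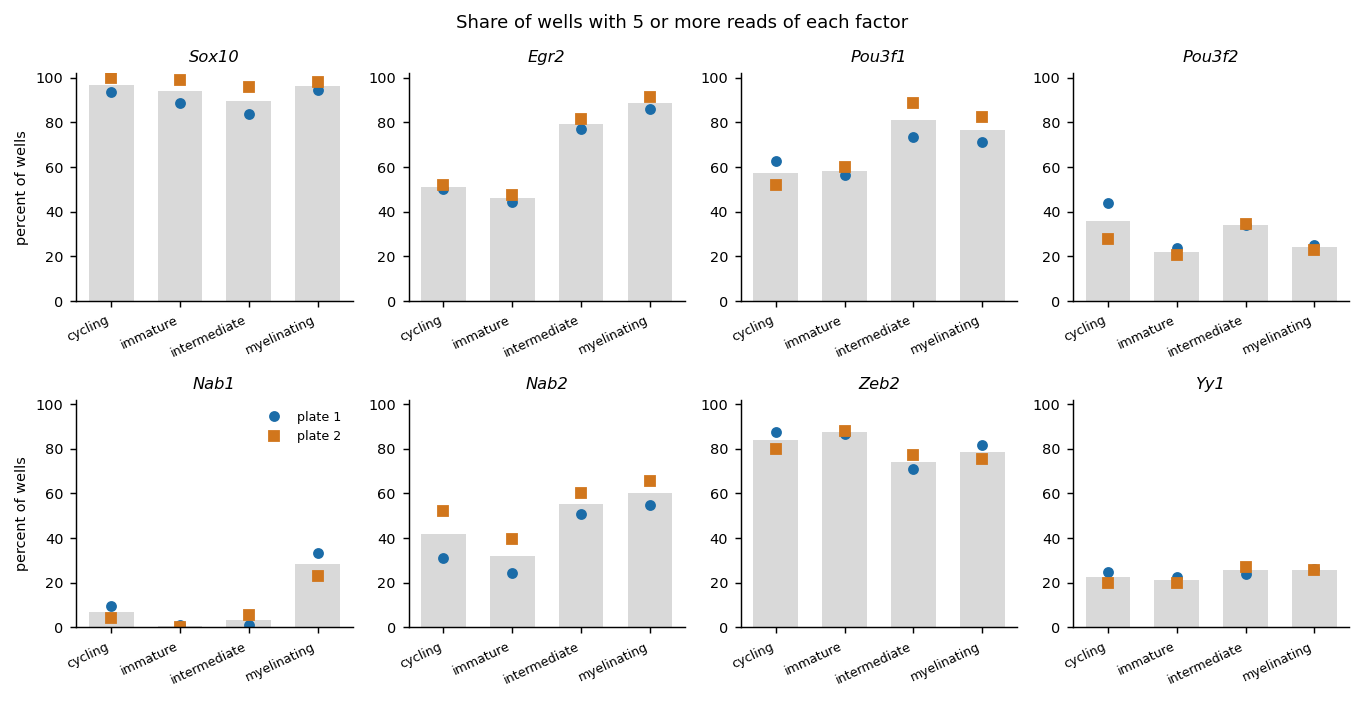
Percent of wells with 5 or more reads of each factor (y axis, 0 to 100) in the 4 states (x axis). Points are the 2 plates and grey bars their mean. Egr2 goes from 45.9% of immature to 88.6% of myelinating wells, and Nab1 from 0.472% to 28.2%.

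Pou3f1, the pro-myelinating POU factor, was highest in intermediate cells but not beyond its spread. It measured 112 and 156 CPM in immature, 158 and 150 CPM in intermediate, 91.4 and 71.4 CPM in myelinating, and 55.7 and 126 CPM in cycling cells. Immature and intermediate values overlapped, and both myelinating values were below all of these, although after scaling for composition (TMM) they overlapped the immature ones. Log2 changes were 0.34 ± 0.38 for intermediate minus immature (adjusted p = 0.881) and -0.67 ± 0.39 for myelinating minus intermediate (adjusted p = 0.666), and neither passed. The share of wells with at least 5 reads was 58.2% in immature, 81.0% in intermediate and 76.8% in myelinating cells, with 73.4% and 71.3% in plate 1 and 88.6% and 82.3% in plate 2 for the last 2 states. Among wells with these reads, the median was 183 and 159 CPM in intermediate cells and 82.8 and 85.4 CPM in myelinating cells. The shares of these 2 states overlapped, whereas these medians were lower in myelinating cells of both plates.

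Pou3f2, the second POU factor, was found in fewer wells of each non-cycling state than Pou3f1, and its level per kilobase of exon was lower, at 3.57 to 10.47 against 14.5 to 41.1 CPM per kb over the 8 sums. It was at 36.7 and 30.5 CPM in immature, 35.0 and 32.4 CPM in intermediate, and 19.96 and 20.04 CPM in myelinating cells. The cycling sums were 58.5 and 21.9 CPM and spanned nearly the whole range of the gene. It passed in no comparison, with adjusted p from 0.816 to 0.999. At least 5 reads were found in 22.04% of immature, 34.2% of intermediate and 24.004% of myelinating wells.

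Nab1, a cofactor of Egr proteins, was highest in myelinating cells, and it was the factor with the fewest reads. Its level was 1.30 and 0 CPM in immature, 0.320 and 8.77 CPM in intermediate, 34.0 and 16.7 CPM in myelinating, and 6.84 and 6.54 CPM in cycling cells. Both myelinating values were above those of every other state. All 70 reads in immature cells came from 1 of 228 wells, at 142 CPM. Relative to immature cells, the myelinating level was 26.2 times higher in plate 1. In plate 2, taking 3 reads per sum as the floor for a count of 0 gives 333-fold. That floor treats reads as independent, whereas Nab1 reads came from few wells, so it is no lower bound on the fold. With a read in 0 of 122 immature wells of plate 2, the share of such wells could be up to 2.98%. The fit gave a log2 change of 5.67 ± 2.21 that did not pass (adjusted p = 0.241), and this value depends on how counts of 0 are handled. With DESeq2 the same comparison passed (adjusted p = 0.00854), as it did with a minimum of 2500 detected genes (adjusted p = 0.0180), which left no immature well with 5 reads of Nab1.

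At least 5 reads of Nab1 were found in 33.3% and 23.01% of myelinating wells, against 0.943% and 0% of immature and 1.27% and 5.71% of intermediate wells. Thinned to equal depth, the gene had a read in 29.3% of myelinating, 5.01% of intermediate and 0.495% of immature wells. Even among myelinating cells it was found in a minority of wells. Most of its reads came from few wells, with 67.4% and 82.9% of the myelinating reads in 11 wells of each plate.

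Nab2, the other Egr cofactor, was higher in intermediate and in myelinating than in immature cells. It stood at 35.2 and 42.8 CPM in immature, 105 and 105 CPM in intermediate, 80.6 and 90.9 CPM in myelinating, and 41.0 and 51.2 CPM in cycling cells. Intermediate and myelinating values were all above the immature and cycling ones. The log2 change was 1.57 ± 0.29 for intermediate minus immature (adjusted p = 0.0312), a fold of 2.97, with 1.72 and 1.40 within the plates. It was 1.52 ± 0.29 for myelinating minus immature (adjusted p = 0.0182), with 1.57 and 1.45 within the plates. Wells with at least 5 reads made up 31.9% of immature, 55.3% of intermediate and 60.1% of myelinating wells.

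In edgeR the rise of Nab2 lost its call when wells were thinned to 100000 reads, shallower wells left out, or scaled to one total. Adjusted p was 0.0593 and 0.0883 for intermediate and 0.0564 and 0.0798 for myelinating minus immature. The rise to intermediate cells also lost it with a Pmp22 limit of 20000 CPM (adjusted p = 0.120). Gm16229, which was not analysed here, shares the most exon bases with it, 1050 of them. Nemp1 shares 151 and Stat6 40 bases, and neither of these passed in any comparison. Stat6 was at 9.31 and 20.4 CPM in immature and 26.2 and 32.3 CPM in myelinating cells, and Nemp1 at 5.45 and 7.81 CPM and 23.4 and 18.6 CPM. Both were higher in myelinating cells of each plate, and their part in the Nab2 value was not tested.

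Zeb2, the repressor of myelination inhibitors, was the only factor that fell by the test. It was at 394 and 324 CPM in immature, 162 and 146 CPM in intermediate, 135 and 115 CPM in myelinating, and 222 and 278 CPM in cycling cells. The values of the 4 states did not overlap, with immature highest and myelinating lowest. The log2 change was -1.14 ± 0.21 for myelinating minus immature (adjusted p = 0.0167), with -1.15 and -1.12 within the plates. For intermediate minus immature it was -1.08 ± 0.21 (adjusted p = 0.0411), and it missed the threshold with the plate as a replicate block (adjusted p = 0.0567) and with a Pmp22 limit of 20000 CPM (adjusted p = 0.0551). After scaling for composition, the myelinating and intermediate sums overlapped, and the change between them was -0.057 ± 0.21 (adjusted p = 1).

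Unlike Egr2, Zeb2 differed more in level per well than in the share of wells. At least 5 reads were found in 87.2% of immature, 74.0% of intermediate and 78.4% of myelinating wells. Among wells with these reads, the median was 372 and 304 CPM in immature cells, 151 and 143 CPM in intermediate cells and 131 and 112 CPM in myelinating cells. The immature medians were above all the others.

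Yy1, an upstream factor of Egr2 that most cell types express, stayed low and variable. It was at 39.2 and 41.1 CPM in immature, 55.9 and 47.4 CPM in intermediate, 40.2 and 24.4 CPM in myelinating, and 32.6 and 16.6 CPM in cycling cells. In unscaled CPM both intermediate sums exceeded all others. After scaling for composition (TMM) they were 56.0 and 46.2 CPM and overlapped the myelinating sums, 47.3 and 28.5 CPM. The log2 change of 0.50 ± 0.47 for intermediate minus immature did not pass (adjusted p = 0.822). As a mean of CPM per well the order was lost, with 50.7 and 35.7 CPM in immature and 40.4 and 40.3 CPM in intermediate cells. In intermediate cells, 8 wells of plate 1 and 7 of plate 2 held 86.3% and 73.9% of the Yy1 reads. The share of wells with at least 5 reads lay between 19.7% and 27.1% in all 8 sums.

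**Figure D3:**
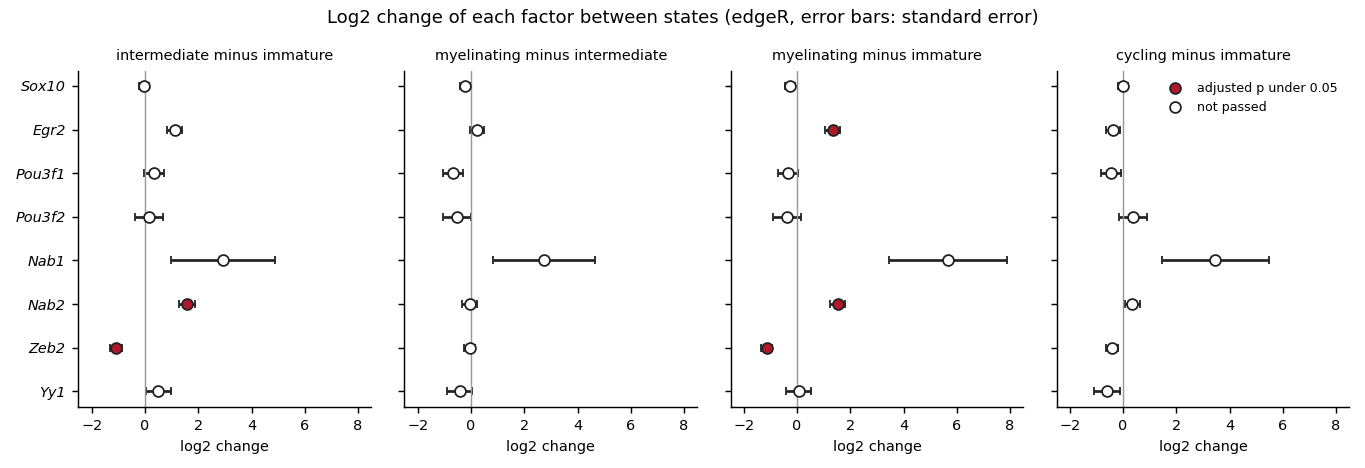
Log2 change of the 8 factors (y axis) in the 4 comparisons between states (x axis, log2 scale), as fitted by edgeR with standard errors. Filled points passed at an adjusted p under 0.05. These are Nab2 (1.57) and Zeb2 (-1.08) for intermediate minus immature and Egr2 (1.34), Nab2 (1.52) and Zeb2 (-1.14) for myelinating minus immature.

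Read against all genes tested, the counts were as follows. For intermediate minus immature, 1 factor rose and 1 fell of 8, where 1.95% of the 13892 genes tested passed, 0.965% higher and 0.986% lower. For myelinating minus immature, 2 rose and 1 fell, where 5.1% of genes passed, 2.58% higher and 2.51% lower. For myelinating minus intermediate, 0 of 8 passed in edgeR and in DESeq2, 0 had an unadjusted p under 0.05, and 0.77% of genes passed, 0.346% higher and 0.425% lower. For cycling minus immature the log2 changes were -0.41 ± 0.21 for Zeb2 (adjusted p = 0.392), -0.38 ± 0.27 for Egr2 (adjusted p = 0.533) and 3.47 ± 2.00 for Nab1 (adjusted p = 0.441). This comparison gave 0 of 8 in edgeR and in DESeq2 and 0 at an unadjusted p under 0.05, with 2.46% of genes passing, 1.21% higher and 1.25% lower. After scaling, the sums of the 2 states did not overlap for 5, 4, 6 and 5 factors in intermediate minus immature, myelinating minus intermediate, myelinating minus immature and cycling minus immature. The corresponding shares of all genes tested were 43%, 44.4%, 53.9% and 44.3%, since pairs of values often separate.

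Scaling for composition bears on these counts. TMM factors were 1.12 and 1.11 for the immature sums and 0.851 and 0.857 for the myelinating sums. Without TMM the median log2 change of all genes for myelinating minus immature moved from -0.041 to -0.42, and the calls from 359 higher and 349 lower to 250 higher and 689 lower. For myelinating minus intermediate they moved from 48 higher and 59 lower to 29 higher and 110 lower. On that scale, Egr2 (0.95, adjusted p = 0.0738) and Nab2 (1.14, adjusted p = 0.0525) kept their direction for myelinating minus immature and missed the threshold, and Zeb2 passed.

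The order of events was followed further by binning the non-cycling wells by Pmp22, a compact myelin gene whose level also entered the sorting into states. The 5 bins ran from below 3000 CPM to 60000 CPM and above, with 39 to 89 wells per bin and plate. Nab2 went from 44.2 and 36.4 CPM in the lowest bin to 123 and 122 CPM in the middle bin, from 10000 to 30000 CPM of Pmp22, and was at 62.7 and 75.2 CPM in the highest. In both plates its peak was in that middle bin. Egr2 went from 92.0 and 108 CPM in the lowest bin to 275 and 210 CPM in the middle one, with 249 and 172 CPM in the highest. In CPM it too was highest in the middle bin of each plate, and its share of wells with at least 5 reads went on to 86.7% and 92.5% in the highest bin. These bins were not scaled for composition. After TMM the sums of Egr2 were 236 and 176 CPM in intermediate and 294 and 188 CPM in myelinating cells, so the order of intermediate and myelinating cells depends on the scaling. Those of Nab2 were 105 and 103 CPM and 94.7 and 106 CPM.

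Zeb2 stepped down from 346 and 283 CPM in the lowest bin to 115 and 101 CPM in the highest, lower at each step in both plates. Pou3f1 was at 124 and 185 CPM in the lowest bin and at 66.2 and 60.5 CPM in the highest, the lowest value of each plate. Nab1 was at or below 2.72 CPM in the first 2 bins of both plates and at 36.4 and 16.7 CPM in the highest. The plates differed in the middle bin, with 0.544 CPM of Nab1 in plate 1 and 11.3 CPM in plate 2. These values describe the wells and were not tested.

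**Figure D4:**
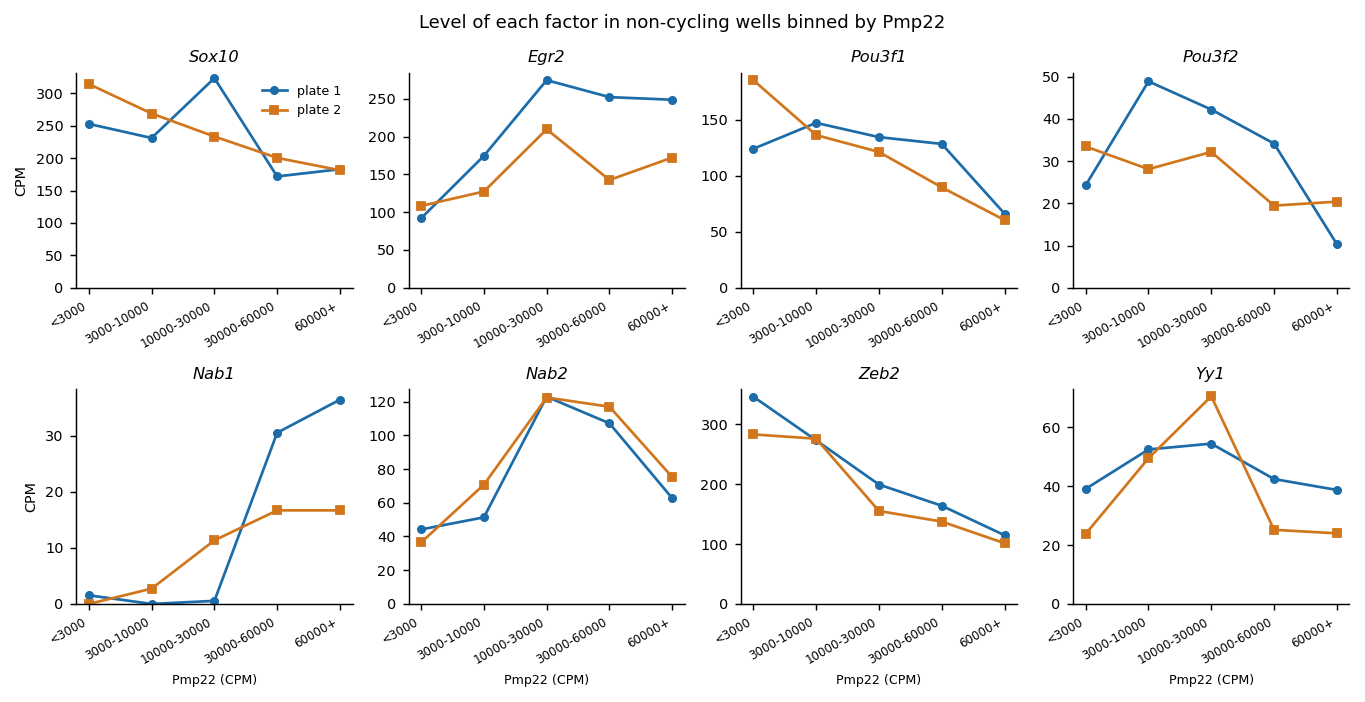
Level of each factor (CPM, y axis from 0, own scale per gene) in non-cycling wells of 5 ranges of Pmp22 (x axis, CPM, ranges of unequal width), 1 line per plate. In CPM not scaled for composition, Nab2 and Egr2 are highest from 10000 to 30000 CPM of Pmp22 in both plates, while Zeb2 steps down from 346 and 283 CPM to 115 and 101 CPM.

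Whether the factors meet in the same cell was read from wells with at least 5 reads of each. Egr2 and Pou3f1 were both found in 29.2% and 32.0% of immature wells, 62.0% and 72.9% of intermediate wells and 63.9% and 73.5% of myelinating wells. The products of the shares of wells with each gene were 25.1% and 28.4%, 56.7% and 72.1%, and 61.4% and 75.02%. The share with both was above the product in 5 of 6 combinations of state and plate, and below it in myelinating wells of plate 2. The products rose over the same states, so the rise of the share with both follows largely from the shares of each gene. Neither was found in 28.3% and 24.6% of immature wells but in 6.48% and 0% of myelinating wells. Wells with Pou3f1 and without Egr2 made up 27.4% and 27.9% of immature and 7.41% and 8.85% of myelinating wells, and wells with Egr2 alone 15.1% and 15.6% of immature and 22.2% and 17.7% of myelinating wells. In counts, Pou3f1 alone stood against Egr2 alone at 29 to 16 and 34 to 19 immature wells. In myelinating wells these counts were 8 to 24 and 10 to 20. This reversal follows by arithmetic from the number of wells with each gene, and says nothing further of their pairing. Sox10, Egr2 and Nab2 met in 9.43% and 19.7% of immature, 41.8% and 55.7% of intermediate and 47.2% and 60.2% of myelinating wells. No product of shares was computed for this set.

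**Figure D5:**
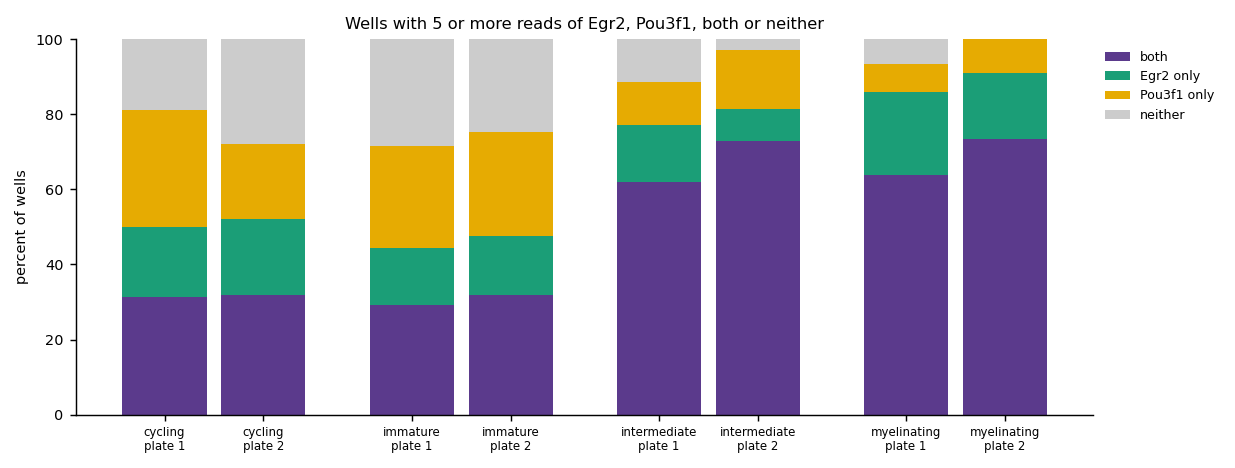
Percent of wells (y axis) with 5 or more reads of both Egr2 and Pou3f1, of only one, or of neither, for each state and plate (x axis). The share with both goes from 29.2% and 32.0% of immature to 63.9% and 73.5% of myelinating wells. The product of the shares of each gene goes from 25.1% and 28.4% to 61.4% and 75.02%.

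Within a state and plate, levels of the factors were only weakly related across wells. Over the 28 pairs of factors and the 3 non-cycling states in each plate, Spearman's rho of thinned counts lay between -0.361 and 0.364, and 149 of 161 values were between -0.2 and 0.2. These wells share a plate and the counts are sparse, so the values are a description only. For 4 of the 28 pairs rho was above 0 in all 6 combinations of state and plate. These were Egr2 with Nab2 (0.038 to 0.224), Egr2 with Pou3f2 (0.028 to 0.238), Pou3f2 with Nab2 (0.030 to 0.199) and Sox10 with Zeb2 (0.0035 to 0.256). Egr2 and Nab2 met in 44.3% and 55.7% of intermediate wells, where the product of their shares was 39.1% and 48.9%. The gap was smaller in immature wells, with 12.3% and 19.7% beside products of 10.9% and 18.7%. It was also smaller in myelinating wells, with 49.1% and 61.1% beside 47.0% and 59.7%. These shares were not thinned to equal depth. In intermediate cells, Egr2 was found in 49 of 58 wells with Pou3f1 and in 12 of 21 without it in plate 1, and in 51 of 62 and 6 of 8 in plate 2, whereas rho of their thinned counts in this state was -0.070 and -0.091.

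The genes around these factors were read from lists. Of 21 known targets of Sox10 and Egr2, 13 rose and 0 fell in intermediate over immature cells, with a median log2 change of 1.71 beside -0.028 for all genes tested. In myelinating over intermediate cells 7 rose (median 0.74 beside 0.0024), and in myelinating over immature cells 15 rose (median 2.28 beside -0.041). Drp2, which encodes a dystrophin-related protein of the myelin sheath surface, had 1 read in all immature cells and 16.4 and 6.29 CPM in intermediate and 193 and 181 CPM in myelinating cells. Pmp2, a fatty acid binding protein of peripheral myelin, went from 24.3 and 27.5 CPM in immature to 750 and 803 CPM in intermediate and 3136 and 3518 CPM in myelinating cells. Gjb1, the gap junction protein connexin 32, was at 21.2 and 8.09 CPM in immature and 71.9 and 99.6 CPM in intermediate cells, a log2 change of 2.69 ± 0.48 (adjusted p = 0.0357) that passed in 10 of 12 alternatives (highest adjusted p = 0.0676).

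Hmgcs1, an enzyme of cholesterol synthesis, rose by 2.19 ± 0.24 on the log2 scale from intermediate to myelinating cells (adjusted p = 0.00502). Ugt8a, which makes the myelin lipid galactosylceramide, rose by 4.16 ± 0.29 from immature to myelinating cells (adjusted p = 9.14e-05). States were set with 2 other myelin genes, so the direction of this list is not independent of the sorting. In cycling over immature cells 0 targets rose and 5 fell (median -0.81 beside -0.13). Those named by the rule were Gjb1, with no read in cycling cells, S100b (-1.80 ± 0.38, adjusted p = 0.0489) and Ndrg1 (-1.33 ± 0.13, adjusted p = 0.00167). The call of S100b passed in 6 of 12 alternatives (highest adjusted p = 0.170).

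Of 15 genes known to hold back myelination or to be kept low by Zeb2 or Egr2, 13 were tested. None rose in any of the 4 comparisons by edgeR or DESeq2, and 0 were higher at an unadjusted p under 0.05. In intermediate over immature cells 3 fell (median -1.46 beside -0.028 for all genes tested). In myelinating over intermediate cells 4 fell (median -1.56 beside 0.0024), and in myelinating over immature cells 7 fell (median -2.47 beside -0.041). The states were set with myelin genes and the list holds markers of immature cells, so its direction is not independent of the sorting either. The adhesion gene Ncam1 was at 516 and 473 CPM in immature, 93.6 and 56.1 CPM in intermediate and 2.98 and 3.89 CPM in myelinating cells. The endothelin receptor gene Ednrb was at 3202 and 2473 CPM in immature, 716 and 441 CPM in intermediate and 61.6 and 43.3 CPM in myelinating cells. The cyclin gene Ccnd1 fell by 2.53 ± 0.16 on the log2 scale from intermediate to myelinating cells (adjusted p = 2.90e-04), and the early response gene Egr1 by 1.75 ± 0.22 from immature to intermediate cells (adjusted p = 0.00517).

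Of 14 partners and cofactors, among them chromatin remodellers, deacetylases, acetyltransferases and calcineurin subunits, 13 were tested and 0 passed in any comparison by edgeR. For intermediate minus immature 4 had an unadjusted p under 0.05 and DESeq2 called 1, Crebbp, lower, and for myelinating minus immature these counts were 1 and 1, Hdac1, again lower. For cycling minus immature 1 had such a p and DESeq2 called 0, and for myelinating minus intermediate both counts were 0. Crebbp and Hdac1 were named after their values were seen. The median log2 change of the 13 tested partners and cofactors for myelinating minus immature was 0.070 beside -0.041 for all genes. Of 12 transcription factors of other lineages, 3 had a read in any of the 655 wells, the most frequent in 4 wells (0.611%). These genes say nothing of free RNA from Schwann cells, the part of which in the values was not tested.

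The genes most like each factor over the 8 sums were ranked by Pearson's r of log2(CPM + 1) among 3539 genes. Closest to Egr2 were Mrps12 (0.976), Cdc42 (0.967) and Gsdme (0.962), and closest to Nab2 were Dynll1 (0.976), Prdx1 (0.965) and Alad (0.958). For Zeb2 they were Laptm4b (0.980), Bpgm (0.974) and Deptor (0.972), and for Sox10 Klf7 (0.982), Cnot10 (0.980) and Oxa1l (0.976). Pou3f1 was nearest to Med10 (0.954), Abhd11 (0.939) and Ist1 (0.937), and the genes nearest to Pou3f2 included Mrpl55 (0.969) and Eif3m (0.966). Nab1 was nearest to Igsf8 (0.942), Faim (0.894) and Sike1 (0.891), and Yy1 to Sppl2b (0.977), Frmd8 (0.942) and Glmp (0.939). The 8 sums are 4 states of the same 2 plates and share their depth and animals, so these values are a description.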

How the data were processed

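The values deposited by the authors are raw read counts per gene and well, made with STAR and featureCounts. STAR 2.6.1c and GRCm38.p5 are given in the submitters' processing notes. The methods of the paper give another STAR version and a human build, while the identifiers are those of mouse genes. Because Smart-Seq2 carries no molecular identifiers, PCR copies count as reads, and intervals and limits cover counting error only. Identifiers were matched to GENCODE vM21, and the 113 of 25700 that had no match held 0.0916% of reads. No doublet caller was run.

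Plates are the replicates. The 655 retained wells gave 8 sums, 4 states in 2 plates, of 13925435 to 98479212 reads. These were fitted with edgeR 4.0.16 in R 4.3.3 (quasi-likelihood test, TMM, filterByExpr, 1 mean per state, 4 residual degrees of freedom). The 12 genes that define states were left out, and the Benjamini-Hochberg adjustment ran over all 13892 genes tested, with a threshold of 0.05. The script was run on simulated counts to check the code. These had less spread than the fitted common dispersion of 0.713, and larger changes than those of the factors that passed. The run therefore does not show how often changes of this size are found in these data. Standard errors are those implied by the F statistic, and within-plate log2 ratios were taken after adding 0.5 CPM. P-values measure the spread of the sums of a state between the 2 plates, pooled over the 4 states. This spread does not separate animals from plate handling or from the wells drawn.

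Plate numbers pair the sums, because the states of a plate come from the same animals. Deviations of same-plate sums correlated from -0.0095 to 0.122 over 1990 genes. Alternatives were a fit with the plate as a block, DESeq2 1.42.0, other scalings, filters, gene minimums and state limits. The factors, lists and tests were chosen with earlier results of these data known. Named genes were the 8 factors, per list and comparison the 3 that passed with the largest log2 change at a mean of 20 CPM or more, and the 3 nearest genes per factor at 50 CPM or more. A gene near Pou3f2 by this rule is not reported here. Protein sequences were not used here.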

Additional observations from a re-analysis of the deposited data

Results flagged for a closer look

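Wells outside the corners with under 1500 detected genes entered no comparison. These 105 wells together held 7279040 reads, and each factor had more reads in them than the 3 that a count of 0 allows. Sox10 had 623 reads in 23 wells, Egr2 456 reads in 10 wells and Pou3f1 1823 reads in 24 wells. Pou3f2 had 94 reads in 5 wells, and Nab1 had 16 reads in 1 well. Nab2 had 281 reads in 7 wells, Zeb2 979 reads in 21 wells, and all 248 reads of Yy1 came from 1 well. Pou3f1, at 250 CPM, was above its level in every sum of retained wells.

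The 8 wells at the plate corners also entered no comparison. The 4 of them with under 1500 genes held 31407 reads, among them 19 of Zeb2 in 2 wells, 12 of Yy1 in 1 well and 2 of Pou3f1 in 1 well. The 4 with 1500 or more genes held 127106 reads, among them 3 of Sox10 and 1 of Zeb2. In the corners, Zeb2 and Yy1 were thus above the 3 reads that a count of 0 allows, and the other 4 factors had no read.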

How the results depend on the processing

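Over 12 tested alternatives the 32 changes of factors between states gave 384 values, of which 356 kept their direction and side of the threshold, and none of the 5 changes that passed turned its direction. Calls over all genes depended on the tool: DESeq2 called 917, 634, 1493 and 1295 genes (intermediate minus immature, myelinating minus intermediate, myelinating minus immature, cycling minus immature), no filter on low counts 682, 420, 1187 and 838, and thinned wells 472, 208 and 518 in all but the third. For intermediate minus immature, Egr2 passed with no filter (1.11), DESeq2 (1.12), thinned wells (1.05) and wells scaled to one total (1.16), Nab2 missed the threshold with thinned wells (1.42), scaled wells (1.41) and a Pmp22 limit of 20000 CPM (1.28), and Zeb2 missed it with that limit (-1.08). With the plate as a replicate block Zeb2 also missed it (-1.08, adjusted p = 0.0567), and the block changed no other call of the factors. For myelinating minus immature, Egr2 missed it without TMM (0.95), Nab2 without TMM (1.14), with thinned (1.28) and with scaled wells (1.26), and Nab1 passed with no filter (5.68), DESeq2 (5.70) and a minimum of 2500 genes (13.54).

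Directions turned for changes that had not passed. These were Pou3f2 with a Pmp22 limit of 20000 CPM (-0.17 for intermediate minus immature, 0.016 for myelinating minus intermediate), and for myelinating minus intermediate Egr2 without TMM (-0.016), Nab2 with the limit of 20000 CPM (0.34) and Zeb2 with scaled wells (0.015). Yy1 turned for myelinating minus immature without TMM (-0.31), with thinned (-0.184) and with scaled wells (-0.181). Sox10 turned for cycling minus immature without TMM (-0.097), with thinned wells (-0.064), scaled wells (-0.061) and an Ncmap limit of 5 reads (-0.000800). The cause was not tested.

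With 1 plate left out only a log2 ratio within the other plate is left, with no test. That of Nab1 ranged from -1.02 to 4.18 for intermediate minus immature, from 4.61 to 5.32 for myelinating minus immature and from 2.08 to 3.78 for cycling minus immature, the low value of each without plate 2, and from 1.14 to 5.62 for myelinating minus intermediate, the low value without plate 1. Of 160 alternative values for levels and shares, 34 moved by more than the spread of the plates. The small number of plates limits every test, and genes found in few wells, Nab1 and Yy1 above all, rest on few cells.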

Other observations

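Of 11 paralogs of the factors 7 were tested. By edgeR, Egr1 and Egr3 fell and the other 5 passed in no comparison. Of the 7, 0 rose in any comparison by edgeR, while 1, Sox8, was higher in intermediate than in immature cells at an unadjusted p under 0.05 and by DESeq2. Egr1, the early response relative of Egr2, was at 750 and 812 CPM in immature, 184 and 238 CPM in intermediate and 132 and 90.3 CPM in myelinating cells, and fell by 2.43 ± 0.22 on the log2 scale from immature to myelinating cells (adjusted p = 3.81e-04). Egr3 was at 51.9 and 66.4 CPM in immature, 8.43 and 6.08 CPM in intermediate and 0.599 and 0.986 CPM in myelinating cells. It fell by 2.89 ± 0.52 from immature to intermediate (adjusted p = 0.0281) and by 2.95 ± 0.52 from intermediate to myelinating cells (adjusted p = 0.0468). The first of these passed in 11 of 12 alternatives (highest adjusted p = 0.0643) and the second in 8 of 12 (highest adjusted p = 0.0970). So within 1 gene family Egr2 rose and its relatives Egr1 and Egr3 fell over the same states. Egr4 had no read in any retained well.

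Sox8, a relative of Sox10 that was chosen here after its values were seen, was at 16.4 and 21.7 CPM in immature, 60.7 and 54.4 CPM in intermediate and 20.8 and 29.1 CPM in myelinating cells. Both intermediate values were above all others, but the log2 change of 1.74 ± 0.46 from immature cells did not pass by edgeR (adjusted p = 0.125). Sox9, Pou3f3 and Pou3f4 were found in 2, 1 and 4 of 655 wells.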
